A study of Mus musculus with 66 samples.

Results

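In the prefrontal cortex (PFC) of adolescent mice, 204 regions with listed H3K9me3 islands lay at promoters of protein-coding genes. They were chosen from the island calls of the 22 H3K9me3 libraries. Each was a run of 200 bp windows on chromosomes 1 to 19 that islands covered in at least 18 of the 22 libraries, was shorter than 20 kb, and reached within 1 kb of the annotated 5′ end (start) of a protein-coding gene in the GENCODE annotation of GRCm38. The coverage criterion alone gave 39329 runs, of which 39302 were shorter than 20 kb. Of these, 6979 lay in gene bodies away from starts and 32119 outside protein-coding genes. The 204 regions reached within 1 kb of the starts of 191 genes, or 0.918% of the 20807 autosomal protein-coding genes. Island coverage chose the regions, so their H3K9me3 levels are given as a description, without a test.

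The mice were male and female DBA/2J. They received ethanol at 4 g/kg (25% w/v in water) or water alone by gavage on intermittent days between postnatal days 29 and 42, with PFC collected 24 h later. Each library came from a pool of 3 PFCs of the same sex and treatment, so cell types were mixed and single mice were not measured. There were 5 water pools and 6 ethanol pools of each sex, with H3K9me3, H3K36me3 and input libraries from each.

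H3K9me3, the trimethylation of lysine 9 of histone H3, marks heterochromatin. It is written by SETDB1 and the SUV39H enzymes, is bound by HP1 proteins, and covers satellite repeats, transposable elements and clustered gene families that are silent in most tissues. KRAB zinc-finger proteins bring SETDB1 to specific sequences through TRIM28. H3K36me3 is laid down along the bodies of transcribed genes, and zinc-finger gene clusters are known for carrying both marks.

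Many of these promoters were near-copies of each other, and the first set of sequences shows it for zinc-finger genes of a cluster on chromosome 4. The 150 bases before each start are printed 5′ to 3′ on the strand of the gene, from RefSeq GRCm38.p6, with CpG sites in capitals. Zfp600 is at chr4:146156674-146156823 (+), Rex2 at chr4:147021700-147021849 (+) and Zfp978 at chr4:147361153-147361302 (+). No printed window overlapped an annotated exon.
Zfp600: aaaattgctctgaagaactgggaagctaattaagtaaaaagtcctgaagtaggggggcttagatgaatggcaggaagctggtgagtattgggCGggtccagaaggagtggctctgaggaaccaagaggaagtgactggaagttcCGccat
Rex2: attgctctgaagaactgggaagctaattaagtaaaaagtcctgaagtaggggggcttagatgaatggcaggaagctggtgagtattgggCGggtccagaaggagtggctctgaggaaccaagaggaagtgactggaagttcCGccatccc
Zfp978: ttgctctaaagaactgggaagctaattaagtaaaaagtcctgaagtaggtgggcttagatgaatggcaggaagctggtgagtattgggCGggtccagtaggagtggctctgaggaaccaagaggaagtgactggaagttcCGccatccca

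The second set shows the same for Cyp3a41a, at chr5:145720137-145720286 (-), and Cyp3a41b, at chr5:145584731-145584880 (-), which encode cytochrome P450 enzymes of the liver. Capitals again mark CpG sites.
Cyp3a41a: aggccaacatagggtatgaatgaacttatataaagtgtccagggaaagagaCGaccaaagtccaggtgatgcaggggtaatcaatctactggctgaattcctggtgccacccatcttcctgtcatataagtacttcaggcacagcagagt
Cyp3a41b: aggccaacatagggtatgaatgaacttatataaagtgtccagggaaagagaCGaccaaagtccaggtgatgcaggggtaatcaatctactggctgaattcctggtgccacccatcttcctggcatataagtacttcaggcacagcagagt

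The third set shows the promoters of the highest H3K9me3 levels, Gm13083 at chr4:143614853-143615002 (+), with 0 CpG sites, and Ceacam11 at chr7:17971974-17972123 (+), with 1 CpG site in capitals.
Gm13083: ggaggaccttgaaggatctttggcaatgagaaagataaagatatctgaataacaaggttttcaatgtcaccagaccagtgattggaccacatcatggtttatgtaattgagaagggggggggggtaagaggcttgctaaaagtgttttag
Ceacam11: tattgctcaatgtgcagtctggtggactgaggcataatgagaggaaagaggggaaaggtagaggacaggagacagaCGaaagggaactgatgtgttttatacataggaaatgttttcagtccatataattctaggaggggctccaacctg

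The fourth set shows Gm10800, at chr2:98667302-98667451 (-), and Gm21738, at chr14:19418931-19419080 (-), whose input was far above that of other regions. Capitals mark a run of 16 bases present in both, which resembles the mouse major satellite, the repeat of pericentromeric heterochromatin. The run had 145 exact copies in the assembly on both strands, 31 of them on assembled chromosomes. Of all autosomal protein-coding promoters (250 bases before to 50 after the start), 6 held it, and 2 of these were at regions described here.
Gm10800: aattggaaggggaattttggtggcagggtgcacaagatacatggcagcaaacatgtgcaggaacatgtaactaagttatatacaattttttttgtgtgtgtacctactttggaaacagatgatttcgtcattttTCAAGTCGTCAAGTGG
Gm21738: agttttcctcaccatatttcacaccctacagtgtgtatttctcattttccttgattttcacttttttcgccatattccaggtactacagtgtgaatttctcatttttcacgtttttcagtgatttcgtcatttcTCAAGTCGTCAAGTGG

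Among the 191 promoters, 80 pairs were at least 80% identical over 300 bases. These pairs involved 53 genes, and 78 of them lay on the same chromosome. The pairs Zfp978 and Zfp979, and Gm9117 and Gm9125, were identical. Rex2 was 97.7% identical to Zfp600 and 98.0% to Zfp978, Cyp3a41a was 97.3% identical to Cyp3a41b, and Gm9758 was 97.0% identical to Speer4c.

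The H3K9me3 islands of a library held 4.79 to 13.2 M autosomal ChIP reads. Female water replicate 2 stood apart, with 69.0% of all its listed islands at an FDR over 0.01, against 11.9 to 33.5% in the other libraries. The tissue was checked on gene bodies with H3K36me3 islands in at least 11 libraries. These included 3 of 13 neuron, 1 of 8 astrocyte, 2 of 10 microglia and 2 of 22 myelin and oligodendrocyte marker genes, beside 5368 of all 20807 genes, so these islands did not single out the cell types of cortex.

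The genes were counted by list, beside the 0.918% of all autosomal protein-coding genes, and 61 of the 204 regions were on no list. Predicted gene models, a class by name (Gm and a number) and not a family, made up 61 of the 191 genes, or 4.98% of those on the list. Zinc-finger genes, also listed by gene symbol, contributed 19 of the 420 on that list (4.52%). Zinc-finger genes of other names, such as Rex2, are not on it. Of the receptor genes for pheromones, 14 of 329 vomeronasal receptor genes (4.26%) were included. Of the olfactory receptor genes, 12 of 1128 (1.06%) were included, a share near that of all genes. Of the Tdpoz, Obox, Speer and Nlrp genes, families known from oocytes, early embryos or testis, 11 of 39 (28.2%) were included. Cyp, Ugt, Mup and Serpin genes, with many liver enzymes and secreted proteins, contributed 8 of 204 (3.92%). Interferon-inducible and Ly6 genes contributed 3 of 79 (3.797%), clustered protocadherins 1 of 57 and defensins 1 of 64.

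Genes of other lists had no such region. This held for 57 imprinted, 69 germline and 35 H3K9me3 machinery genes, and for 22 myelin and oligodendrocyte, 13 neuron, 8 astrocyte, 10 microglia and 12 housekeeping genes. It also held for 26 glutamate receptor, 92 potassium channel, 14 ephrin receptor and 19 GABA-A and glycine receptor genes. The same was true of 67 histone, 95 ribosomal protein and 39 homeobox genes. At the 0.918% share of all genes, each of these lists is by itself too short for its lack of regions to show depletion. Depletion was not tested.

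Chromosome 4 held 44 of the regions, chromosome 7 held 31, and chromosomes 1 and 5 held 20 each. When regions within 1 Mb of each other were joined, 149 of the 204 fell into 34 chains. The longest, chr4:143613801-147811600, held 35 regions, at the PRAME family genes Pramef6 and Pramef25, at Oog2, and at zinc-finger genes from Zfp990 to Zfp984. A chain of 12 at chr7:11680801-15840000 ran from pheromone receptor genes (Vmn1r72, Vmn1r77, Vmn1r79 and Vmn1r88) to the oocyte homeobox genes Obox1 to Obox3, Obox5 and Obox6. The Tdpoz cluster at chr3:93652401-94265400 held 11 regions and the Speer4 cluster at chr5:14914401-15715800 held 8. Chains of 7 lay at the nuclear body genes Sp100, Sp110 and Sp140 (chr1:85080201-85651800) and at the Cyp3a genes (chr5:145468001-146527600).

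The regions had a median length of 2200 bp (range 200 to 19800 bp) and covered 713.8 kb together. Of this, 57.9% lay outside protein-coding genes, 35.4% in introns and 6.70% in exons. The start was covered by 81 regions. The most covered bin began 1000 bp before the start (135 regions), and 88 regions covered the bin beginning at the start. Farther out, 57 regions covered the bin 3000 bp before the start and 28 the bin 3000 bp after it.

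**Figure D1:**
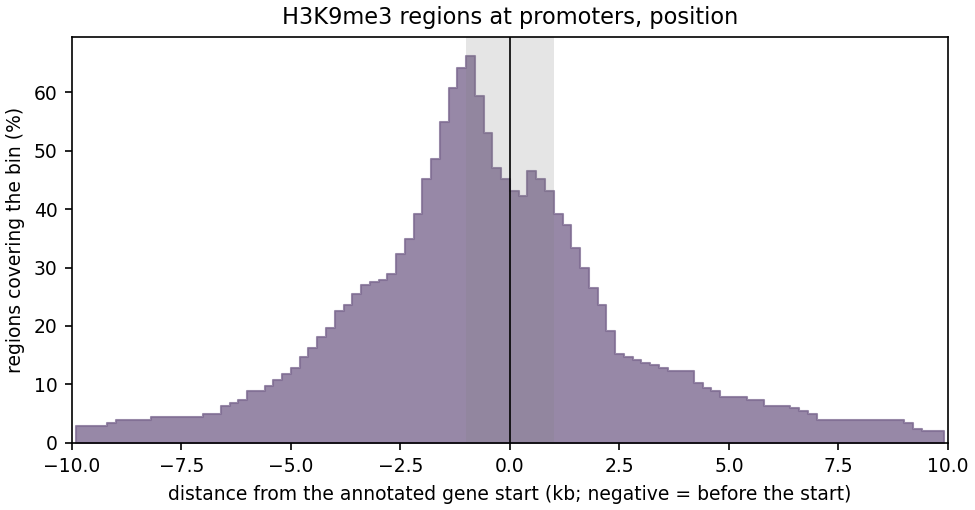
Position of the 204 promoter regions. The horizontal axis is the distance from the annotated start in kb, the vertical axis the percentage of regions that cover each 200 bp bin, and the shading spans 1 kb on either side, within which each region reaches. Coverage is highest before the start, at 66.2% of regions, and 43.1% cover the bin at the start.

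Levels are given as fold over input, the ratio of ChIP to input reads of the overlapping islands divided by a constant for the library, so that 1 is the level of scaled input. The median over libraries ranged from 0.736 to 2.82 between regions, with a median of 1.84. A region varied between libraries with a coefficient of variation of 15.7% in the median (range 4.97 to 40.6%).

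Gm13083, a predicted gene at one end of the chromosome 4 chain, was highest. Its fold was 2.14, 2.14, 3.00, 3.87 and 3.37 in male water replicates 1 to 5 and 2.83, 2.31, 3.47, 2.34 and 2.56 in female water replicates 1 to 5. It spanned 1.84 to 3.55 (median 2.61) in male ethanol and 2.31 to 3.68 (median 3.09) in female ethanol libraries. Ethanol and water libraries overlapped in both sexes. Its input density was 0.474 of the library median, so each fold rests on few input reads.

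Ceacam11, of the carcinoembryonic antigen family of adhesion molecules, followed at 2.56, with islands in 18 libraries and folds from 1.38 to 5.55. Next were the chromosome 13 gene model Gm10139 at 2.47, the MHC class I-like gene Mill1 at 2.43, and the region shared by Obox1 and Obox2 at 2.42. The remainder of the 10 highest were 2410141K09Rik (2.403), Obox3 (2.37), Gm10772 (2.35), Vmn1r79 (2.35) and Gm5591 (2.34). Among these 10, libraries differed most at Ceacam11 and Mill1, with SDs of 1.15 and 0.851, and least at 2410141K09Rik, with an SD of 0.188.

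The highest gene lists were Cyp, Ugt, Mup and Serpin genes (median fold 2.18, 10 regions) and zinc-finger genes (2.13, 23 regions). The leading regions of the former were at Cyp3a41b (2.28 and 2.27), Cyp3a44 (2.27) and Cyp2c67 (2.26). Those of the latter were at Zfp978 (2.33), Zfp988 (2.33), Zfp992 (2.29) and Zfp600 (2.27). Among Tdpoz, Obox, Speer and Nlrp genes (1.99, 11 regions), Obox1 with Obox2, Obox3, Nlrp4e (2.33) and Obox5 (2.27) were highest. Obox6 was at 1.65, and Tdpoz2, Tdpoz4 and Tdpoz5 were at 1.99, 1.997 and 1.79. The lowest were Speer4c at 1.502 and the Speer4d regions at 1.42 and 1.35.

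Vomeronasal receptor regions (1.99, 15 regions) were led by Vmn1r79, Vmn1r2 (2.32 and 2.22) and Vmn1r72 (2.23). Olfactory receptor regions (1.83, 12 regions) kept to a narrow range of 1.59 to 2.05, led by Olfr135 (2.05), Olfr393 (2.04), Olfr401 (2.00) and Olfr465-ps1 (1.94). Predicted gene models had a median of 1.79 (67 regions). Pcdhb15, a clustered protocadherin of neuronal adhesion, was at 1.76 and the defensin Defb2 at 1.6. On the interferon-inducible and Ly6 list, Oasl1 was at 1.41, Mndal with Ifi203 at 1.31 and Ifi211 at 1.29. The 61 regions on no list had a median of 1.56.

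**Figure D2:**
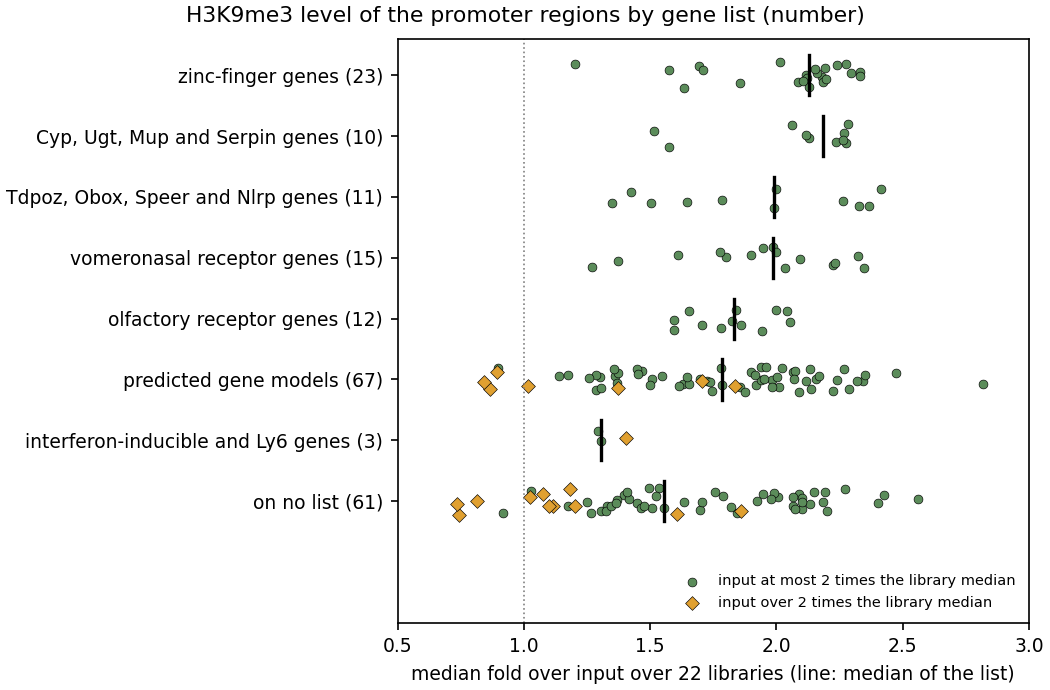
H3K9me3 level by gene list. Each point is a region, the horizontal axis its median fold over input over the libraries, black lines are list medians, and orange diamonds mark regions with input over 2 times the library median. The zinc-finger median (2.13) and the Cyp, Ugt, Mup and Serpin median (2.18) lie highest, and the 3 regions of the interferon-inducible and Ly6 list lie between 1.29 and 1.41.

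Levels are also given by chain. In the chromosome 4 chain, folds ran from 1.58 to 2.82 (median 2.15), and all 35 regions had an island at an FDR of at most 0.01 in at least 18 libraries. The chromosome 13 chain, with Gm10139, Gm10324, Gm10772, 2410141K09Rik, Zfp759 and Olfr465-ps1, had a median of 2.33 (6 regions). The Cyp3a chain was at 2.24 (1.28 to 2.29), the Sp100, Sp110 and Sp140 chain at 2.01 and the Speer4 chain at 1.53. The chain of Fcgr3, encoding an Fc receptor of immune cells, with Itln1 and Cd244a was lowest of those with 5 or more regions, at 1.08, with input at 1.68 times the library median. Regions in chains had a median of 1.98 (149 regions) and those alone 1.47 (55 regions).

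Some regions were not enriched. The median fold was under 1 in 8, at H2-T3, Ifnz, Uros, Gm21738, Gm10800, Gm10801, Gm47996 and Nxpe5. H2-T3, a non-classical MHC class I gene, was lowest at 0.736 (range 0.415 to 0.996). Ifnz, an interferon gene, was at 0.744 and Uros, an enzyme gene of heme synthesis, at 0.814. H2-T3, Ifnz, Uros and Nxpe5 had 0 libraries with an island at an FDR of at most 0.01, and entered because listed islands of any FDR were used.

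Input density moved with the level. Input was over 2 times the library median in 19 regions, whose median fold was 1.099 and of which 4 had an island at an FDR of at most 0.01 in at least 18 libraries. Input was at or below the library median in 115 regions, whose median fold was 2.02 and of which 103 met that criterion. Input is the denominator of the fold, and its part in the level was not tested.

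Gm10800, Gm10801 and Gm21738 were extreme. Their input was 3142, 646 and 682 times the library median and their median folds were 0.865, 0.892 and 0.842. Gm10800 ranged from 0.653 to 1.03 over the libraries and Gm21738 from 0.549 to 1.09. These 3 regions held 73.2 to 82.5% of the ChIP reads of all 204 regions. As the sequences printed for Gm10800 and Gm21738 show, letters of a repeat lie directly before both starts.

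**Figure D3:**
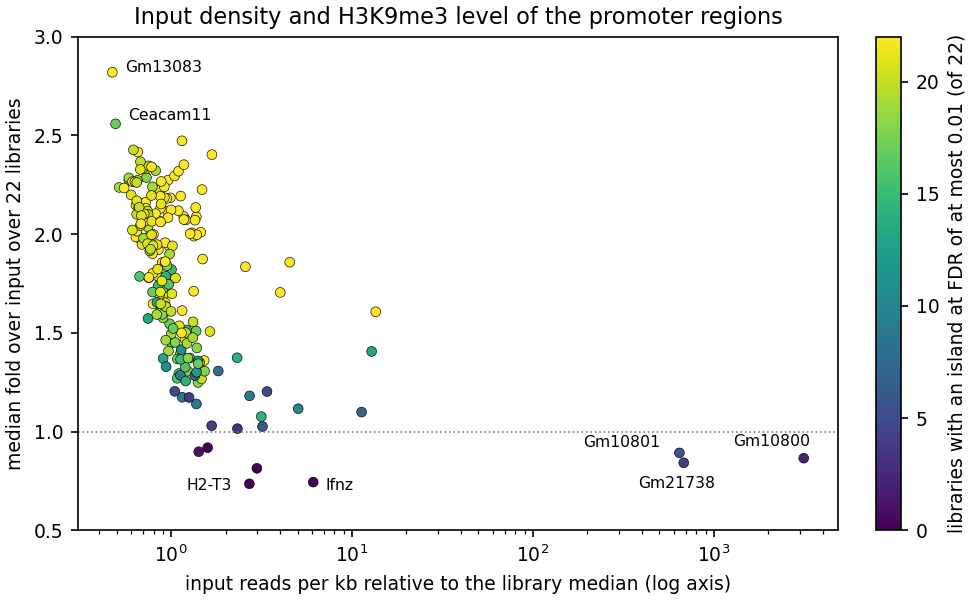
Input density and H3K9me3 level of the 204 regions. The horizontal log axis is input reads per kb relative to the library median, the vertical axis the median fold over input, and the colour the number of libraries with an island at an FDR of at most 0.01. Gm10800, Gm10801 and Gm21738 lie far to the right at folds of 0.842 to 0.892, and Gm13083 is highest at 2.82.

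Beside the median fold of 1.84 at promoters, gene-body regions had 1.45 and regions outside genes 1.48. An island at an FDR of at most 0.01 was found in at least 18 libraries at 74.0% of promoter, 49.1% of gene-body and 57.6% of outside regions. By distance, the 81 regions covering a start were at 1.96, those 1 to 500 bp away at 1.71 and those 501 to 1000 bp away at 1.83. The 246 regions 1001 to 2000 bp from a start were at 1.67 and the 38852 farther away at 1.48.

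The median of the promoter regions exceeded that of gene-body and outside regions in each of the 22 libraries. It was 1.79 ± 0.0615 (SD, n = 5) in male water, 1.88 ± 0.107 (SD, n = 6) in male ethanol, 1.72 ± 0.234 (SD, n = 5) in female water and 1.81 ± 0.0930 (SD, n = 6) in female ethanol libraries. Water and ethanol overlapped in both sexes, at 1.73 to 1.86 and 1.74 to 2.05 in males and at 1.34 to 1.94 and 1.70 to 1.93 in females. The lowest library was female water replicate 2, which was also lowest in the other classes of region.

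**Figure D4:**
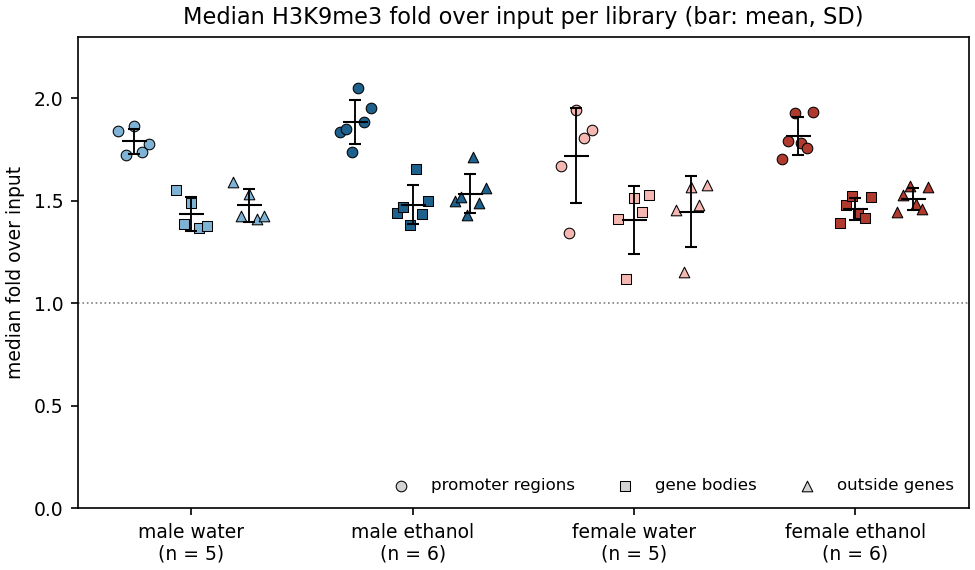
Median fold over input per library. Circles are promoter regions, squares gene-body regions and triangles regions outside genes, grouped by sex and treatment (n = 5 water, n = 6 ethanol), and bars are the mean and SD. Promoter regions lie above the other classes in every library, and water and ethanol overlap.

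The sequence of the regions was not used to choose them. Repeats, as soft-masked bases, made up a median of 49.99% of a promoter region, 99.7% of a gene-body region and 99.1% of an outside region. Repeats covered over 90% of 22.5% of promoter regions and of 79.4% of gene-body regions. Median GC content was 40.8, 38.0 and 37.9%. Neighbouring regions share sequence, so no test was made.

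Not every 150-mer of the regions was unique in the assembly, which here included sequences outside the assembled chromosomes. A copy on such a sequence also made a 150-mer count as not unique. In the median promoter region, 85.6% of 150-mers occurred once in the assembly, and in 17 regions 0% did, Zfp600 and Zfp992 among them. The 95 regions with at least 90% unique 150-mers had a median fold of 1.90 and the 25 with under 10% had 1.78. The study discarded reads with several placements, so values at near-copies such as Zfp978 and Zfp979 are uncertain.

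The promoters were poor in CpG sites. In the 300 bases around the start, the 191 genes had a median of 2 CpG sites and all autosomal protein-coding genes 12. The observed over expected CpG ratio was 0.134 against 0.541 in the median, and it reached 0.6 at 8 of the 191 promoters (4.19%) against 45.5% of all promoters. GC content was 42.7% against 55.3%. The 19 zinc-finger genes had a median ratio of 0.322, against 0.609 for the 420 on the list. The gene models were closer to their list, at 0.162 against 0.191.

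The letters of 7 motifs were counted in these 300 bases on both strands. TGCCGC, the ZFP57 hexamer, was in 0 of the 191 promoters and 13.4% of all promoters. GGGCGG, the GC box, was in 10.99% against 43.71%, GGCGGGA, the E2F core, in 1.57% against 14.3%, CCGGAAG, the ETS core, in 3.66% against 11.03% and the E-box CACGTG in 1.57% against 7.82%. All of these hold a CpG, and the first part of GGCGGGA can overlap GGGCGG. Motifs without a CpG were as frequent or more so, with CCAAT in 50.8% against 38.6% and TATAAA in 16.8% against 12.7%.

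H3K36me3 was measured in the same pools and was not used to choose the regions. A listed H3K36me3 island overlapped by at least 200 bp in at least 11 libraries at 65.7% of promoter, 65.6% of gene-body and 56.8% of outside regions. For islands at an FDR of at most 0.01 these shares were 24.5% (50 regions), 9.89% and 5.77%. Length and input moved with this: the 50 regions had a median length of 5500 bp and input at 1.18 times the library median, against 2200 bp and 0.948 over all 204, and their part was not tested.

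By family, 9 of 23 zinc-finger regions had H3K36me3 islands at this FDR in at least 11 libraries, including Zfp992 in 20 and Zfp600 in 15 libraries. Gm10553, Tdpoz4, Sfi1 and the region of AW822073 and Duxf3, the latter an activator of early embryonic genes, had them in all 22. Input at the region of Duxf3 was 4.53 and at Sfi1 13.5 times the library median. The chromosome 13 genes Gm10139 and 2410141K09Rik, among the highest in H3K9me3, had them in 19 and 20 libraries. None of the 12 olfactory receptor and 10 Cyp, Ugt, Mup and Serpin regions reached 11 libraries. No library had a listed H3K36me3 island in 18 promoter regions (8.82%), beside 3.31% of gene-body and 4.61% of outside regions. The median H3K9me3 fold of these 18 was 2.13, their median length 1000 bp and their median input 0.664 of the library median.

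Regions just inside and outside the criteria are given for reference. At 18 libraries there were 6, at Gm10697, Nxpe5, Cyp3a41b, Ceacam11, Olfr592 and Olfr1356, with folds from 0.918 to 2.56 (median 1.72). At 17 libraries there were 15, with folds from 0.803 to 2.49 (median 1.54), including Cyp2d12 (2.49) and Gm10330 (2.45). The longest region inside was 19800 bp, at Gm10553, and the shortest of 8 promoter runs left out for length was 22600 bp, at Tdpoz3 (2.03). The farthest inside lay 1000 bp from the start of Gm3404 (1.28) and the nearest outside 1011 bp from a start (1.69).

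Whether ethanol changed H3K9me3 was tested on ChIP reads with the quasi-likelihood test of edgeR, fitted per sex to all regions with an island in all 11 libraries. Values are counts per 1 M reads in regions (CPM). In males, 175 of the 204 promoter regions were tested. At the study's threshold, an unadjusted p of at most 0.05, 3 were called, 1 higher and 2 lower in ethanol. Of all 28345 regions 3.21% were called, 1.64% higher and 1.57% lower. After Benjamini-Hochberg adjustment, 0 of the 175 were called by edgeR and 0 by DESeq2, which called 4 of them unadjusted. Non-overlapping groups were found at 0 of the 175 and at 0.342% of all regions.

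Gm9758, a gene model in the Speer4 cluster, was lower in ethanol males. Its water replicates 1 to 5 were at 13.1, 6.99, 8.89, 5.35 and 13.3 CPM and its ethanol libraries at 5.48 to 7.51 CPM (median 6.59). Ethanol lay inside the range of water, and 3 water libraries were above all ethanol libraries. The log2 fold change was -0.54 ± 0.21 (SE, edgeR adjusted p = 0.9999). Without male water replicate 1 it was -0.41 and without replicate 5 it was -0.39, both past the threshold no longer. Over input reads in place of ChIP reads alone it was 0.17, where the median of all regions moved to 0.18, and with those ratios centred it was -0.00998. With whole islands the direction turned (0.58).

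Phf21a encodes a PHD finger protein of the LSD1 demethylase complex, and its region was a single window in an intron, from 484 to 683 bp after the start. Water replicates 1 to 5 were at 29.7, 23.7, 4.56, 32.4 and 21.6 CPM and ethanol libraries at 5.96 to 25.0 CPM (median 11.7). Water replicate 3 was below all ethanol libraries, and the remaining water libraries were above 5 of the 6. The log2 fold change was -0.85 ± 0.38 (edgeR adjusted p = 0.9999), and the direction turned over input reads (0.37), with those ratios centred (0.20) and with whole islands (0.0154). The call was lost without any one of water replicates 1, 2, 4 and 5 or ethanol replicates 2, 4, 5 and 6, at -0.86 to -0.68. Input there was 11.3 times the library median.

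Glrx2, encoding a mitochondrial glutaredoxin, was higher in ethanol males. Water replicates 1 to 5 were at 37.3, 40.1, 35.4, 37.0 and 32.6 CPM and ethanol libraries at 37.8 to 49.2 CPM (median 40.3). The groups overlapped, and ethanol replicate 1 was far above the rest. The log2 fold change was 0.18 ± 0.08 (edgeR adjusted p = 0.9999). The call was lost without any one of water replicates 1, 3, 4 and 5 or ethanol replicates 1, 3 and 6, at 0.12 to 0.18. The direction turned with centred ratios over input (-0.0453) and with whole islands (-0.20). Gm21962 (-0.23) and Olfr1 (-0.19) missed the threshold. Gm21962 passed it without water replicate 4 (-0.26) or ethanol replicate 1 (-0.28). Olfr1 passed it without water replicate 2 (-0.22) or ethanol replicates 3 (-0.21) or 4 (-0.22).

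Over the 175 regions, male log2 fold changes ran from -0.85 to 0.44 with a median of 0.02, against 0.00 over all regions, and the median standard error was 0.11. By list, 0 of 21 zinc-finger, 0 of 14 vomeronasal, 0 of 9 olfactory, 0 of 9 Tdpoz, Obox, Speer and Nlrp, and 0 of 6 Cyp, Ugt, Mup and Serpin regions were called. Their median log2 fold changes were 0.04, 0.06, 0.04, 0.08 and 0.01. Of the gene models, 1 of 61 (Gm9758) was called.

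In females, 145 promoter regions were tested. At an unadjusted p of at most 0.05, 2 were called, 1 higher and 1 lower in ethanol. Of all 23259 regions 4.05% were called, 2.15% higher and 1.9% lower. After adjustment, 0 of the 145 were called by edgeR and 0 by DESeq2, which called 3 of them unadjusted. Over all 23259 regions, DESeq2 called 1 after adjustment. Non-overlapping groups were found at 0 of the 145 and at 0.456% of all regions.

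Zfp534, a zinc-finger gene of the chromosome 4 chain, was higher in ethanol females in an intronic region from 953 to 2152 bp after the start. Water replicates 1 to 5 were at 10.9, 11.8, 8.15, 17.1 and 13.9 CPM and ethanol libraries at 13.6 to 20.3 CPM (median 16.02). Within the ethanol range lay 2 water libraries. The log2 fold change was 0.41 ± 0.17 (edgeR adjusted p = 0.9668), and the call was lost without water replicate 1 (0.37), water replicate 3 (0.29) or ethanol replicate 3 (0.34). The other regions at this start were at 0.03 ± 0.21 and -0.09 ± 0.17 and missed the threshold.

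Speer4d, of a glutamate-rich protein family expressed in testis, was lower in ethanol females. Water replicates 1 to 5 were at 48.0, 52.8, 50.5, 70.1 and 51.0 CPM and ethanol libraries at 41.2 to 50.3 CPM (median 46.2). The groups overlapped, and water replicate 4 was far above all others. The log2 fold change was -0.23 ± 0.10 (edgeR adjusted p = 0.9668), and the direction turned over input reads (0.17) and with those ratios centred (0.13). The call was lost without water replicate 4 (-0.13) or ethanol replicates 1 (-0.22), 2 (-0.21) or 3 (-0.20). Of the 150-mers of the region, 0% were unique in the assembly with its sequences outside the assembled chromosomes. G530012D18Rik (-0.24), Gm5286 (0.31) and Mucl2 (-0.20) missed the threshold.

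These also moved with single libraries. G530012D18Rik was at -0.15 without water replicate 4, and passed the threshold without water replicates 3 (-0.28) or 5 (-0.28) or ethanol replicate 6 (-0.29). Gm5286 was at 0.19 without water replicate 5, and passed it without water replicates 2 (0.38) or 3 (0.41) or ethanol replicate 6 (0.35). Mucl2 passed it without water replicate 3 (-0.23).

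Over the 145 regions, female log2 fold changes ran from -0.26 to 0.56 with a median of -0.02, against 0.00 over all regions, and the median standard error was 0.12. By list, 1 of 20 zinc-finger regions (Zfp534) and 1 of 7 Tdpoz, Obox, Speer and Nlrp regions (Speer4d) were called. None of 11 vomeronasal, 6 olfactory, 4 Cyp, Ugt, Mup and Serpin and 50 gene model regions was called.

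**Figure D5:**
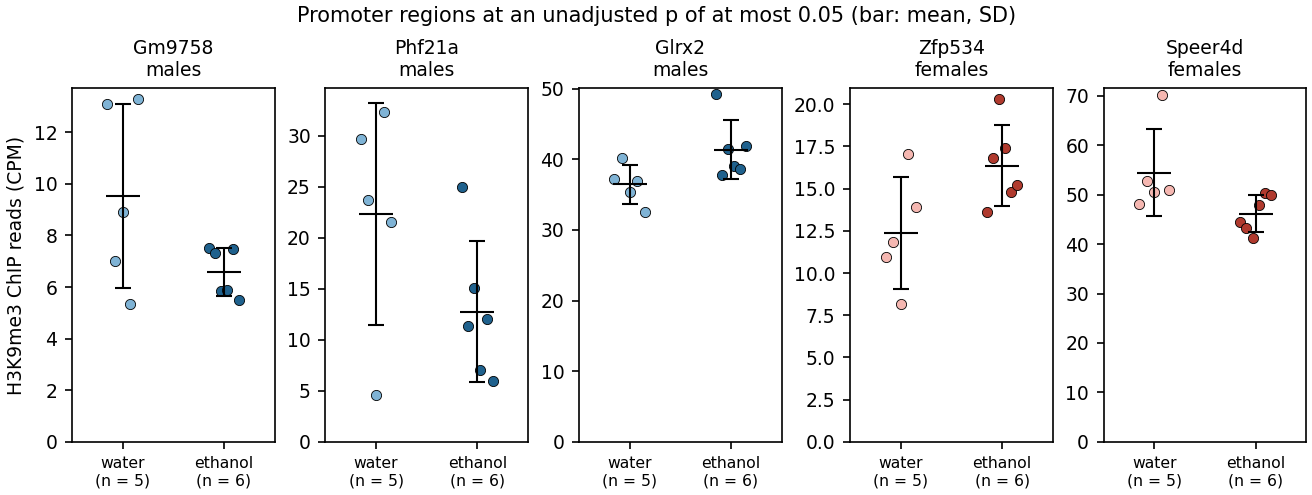
The 5 promoter regions with an unadjusted p of at most 0.05. Points are libraries, the vertical axis is H3K9me3 ChIP reads in CPM, and bars are the mean and SD of 5 water and 6 ethanol libraries, in males for Gm9758, Phf21a and Glrx2 and in females for Zfp534 and Speer4d. Water and ethanol libraries overlap in every panel.

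The difference in the ethanol effect between the sexes was tested at 137 promoter regions with an island in all 22 libraries. It was called at 1, with a higher value in females, and at 4.08% of all 21398 regions, at 2.22% with a higher and 1.86% with a lower value. After adjustment, 0 of the 137 were called by edgeR and 0 by DESeq2, which called 1 of them unadjusted. The region was Gm9758, at a log2 difference, female minus male, of 0.86 ± 0.33 (edgeR adjusted p = 0.9996). Its effect in females alone was 0.32 ± 0.23, which missed the threshold, and the difference turned to -0.90 with whole islands. Over input reads it was -0.0677, where the median of all regions was -0.14, and centred it was 0.0711. Zfp977 (-0.33) and Prl2c3, a gene of the placental prolactin family (-0.44), missed the threshold. Prl2c3 was at -0.27 without male water replicate 1, and passed the threshold without male water replicate 2 (-0.50), male ethanol replicate 4 (-0.51) or female water replicate 1 (-0.51). Zfp977 passed it without any one of male water replicates 4 and 5, male ethanol replicates 2 and 4 or female ethanol replicates 1 and 4, at -0.39 to -0.36.

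Between the sexes, with treatment in the model, 10 of the 137 regions were called, 5 higher and 5 lower in females. Of all 21398 regions 4.84% were called, 2.32% higher and 2.52% lower. After adjustment, 0 of the 137 were called by edgeR and 0 by DESeq2, which called 11 of them unadjusted. Over input reads, where the median of all regions moved to -0.10, 0 were called higher and 8 lower in females, and with those ratios centred 0 higher and 3 lower. The region that covers the start of Zfp978 was lower in females, at 18.6 ± 4.66 (SD, n = 11) against 23.04 ± 1.53 CPM (SD, n = 11), a log2 difference of -0.31 ± 0.11 (edgeR adjusted p = 0.9449). Its direction turned with centred ratios (0.0434) and with whole islands (0.33). Zfp989 was higher in females, at 17.6 ± 2.13 against 15.3 ± 1.31 CPM and a log2 difference of 0.20 ± 0.08, and its direction turned over input reads (-0.14), centred (-0.0348) and with whole islands (-0.76). Olfr395 was lower, at 49.4 ± 7.34 against 56.9 ± 8.35 CPM and a log2 difference of -0.20 ± 0.09, a call lost without female water replicate 2 (-0.16) or male ethanol replicates 1 (-0.18) or 5 (-0.19).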

How the data were processed

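H3K9me3 and H3K36me3 ChIP-seq of 22 PFC pools were used. The authors trimmed 150-base single-end reads with cutadapt, aligned them with Bowtie2 2.4.1 to GRCm38, discarded reads with several placements and called islands with SICER (200 bp windows, gaps of 400 bp for H3K9me3 and 600 bp for H3K36me3) against input, one library at a time. The deposited lists give ChIP and input read counts, a p-value, a fold ratio over input and an FDR per island. The deposited p-values and fold ratios were not filtered by the authors, so weak islands are listed. The reference is of another strain than DBA/2J.

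Island reads were apportioned to regions by overlap, so regions under a shared island are not independent. Counts were made over all 39329 runs. Runs with an island in every library of the comparison were tested with edgeR 4.0.16 (TMM, filterByExpr) in R 4.3.3. Alternatives were DESeq2 1.42.0 and, for log2 ratios of ChIP to input with a pseudocount of 1, limma 3.58.1. The edgeR test was checked on simulated counts. Gene starts were from GENCODE M21 and sequences from RefSeq GRCm38.p6. Replicates are pools of different mice.

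The regions and gene lists were chosen with earlier results of these data known. Named were the 5 regions of smallest p per sex for ethanol, the 3 of smallest p for the interaction and for sex, the 10 highest and 3 lowest in fold, and up to 4 of highest fold per list. Other names were chosen after their values were seen.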

Additional observations from a re-analysis of the deposited data

Results flagged for a closer look

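In 5 of 85 groups examined, a library lay far from the others of its group, and chance flags about 1 in 20 groups. The promoter regions held 7.01% of region reads in male water replicate 5, against 6.49 to 6.61% in the other male water libraries. Without Gm10800, Gm10801 and Gm21738, its share was 1.288%, inside the 1.267 to 1.31% of the other male water libraries. Glrx2 was at 49.2 CPM in male ethanol replicate 1, against 37.8 to 41.9 CPM in the other male ethanol libraries. In female water replicate 4, Speer4d was at 70.1 CPM against 48.0 to 52.8 CPM, and G530012D18Rik at 73.7 CPM against 51.3 to 57.4 CPM in the other female water libraries. Mucl2 was low in female water replicate 3, at 25.2 CPM against 27.9 to 28.9 CPM.

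At Gm9758, the region of smallest p among the promoter regions for this comparison, the difference in the ethanol effect between the sexes was 0.86 on the log2 scale (female minus male), past the unadjusted threshold only (edgeR adjusted p = 0.9996). With whole islands it was -0.90. Over input reads it was -0.0677, where the median of all regions was -0.14, and with those ratios centred it was 0.0711.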

How the results depend on the processing

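The number of regions was 450 with 2 kb on either side of the start, 115 with islands in at least 22 libraries and 383 with at least 11. The share with H3K36me3 was 24.5% for islands at an FDR of at most 0.01. The 3 male calls of 175 became 13 over input reads, 14 with those ratios centred and 13 with whole islands, each of 175. With 2 kb 5 of 348 were called, beside 909 of all 28345 regions. With 22 libraries 5 of 112 were called, beside 544 of 24743, and with 11 libraries 7 of 226, beside 768 of 26143. The 2 female calls of 145 became 6 over input, 6 centred and 8 with whole islands, each of 145. With 500 bp 0 of 106 and with 2 kb 10 of 294 were called, beside 942 of all 23259 regions. At an FDR of at most 0.01, 0 of 71 were called, beside 131 of 4613. With missing islands as 0, 1 of 202 was called, beside 741 of 37505. With 22 libraries 1 of 112 was called, beside 582 of 24712, and with 11 libraries 4 of 188, beside 899 of 21865. The 1 interaction call of 137 became 2 without TMM, 4 over input, 4 centred and 8 with whole islands. Of all 21398 regions these settings called 818, 634, 1014 and 961. With 2 kb 5 of 268 were called, beside 874 of 21398. At an FDR of at most 0.01, 0 of 70 were called, beside 116 of 3632. With missing islands as 0, 0 of 203 were called, beside 730 of 37564. With 22 libraries 3 of 113 were called, beside 513 of 24797, and with 11 libraries 2 of 180, beside 741 of 20569. The 10 sex calls of 137 became 3 centred, beside 1147 of all 21398 regions. With 2 kb 22 of 268 were called, beside 1036 of 21398. At an FDR of at most 0.01, 5 of 70 were called, beside 173 of 3632. Leaving out 1 library gave 1 to 7 male, 1 to 7 female, 1 to 5 interaction and 5 to 14 sex calls. Over all regions, 1678 (over input), 1542 (centred) and 1250 (whole islands) of 28556 were called in males, against 909 of 28345, so calls also rose outside promoters. In females these were 773, 1120 and 1102 of 23291, against 942 of 23259. All 13 male calls over input were higher in ethanol, where the median over all regions moved by 0.18 on the log2 scale.

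Directions reversed in 23 cases. Over input reads, the median of all regions moved by 0.18 in males, 0.04 in females, -0.14 in the interaction and -0.10 between the sexes. Centred, Gm9758 was at -0.00998 in males and 0.0711 in the interaction, both near 0, and Gm21962 at -0.16. The cause of the reversals was not tested. Over input reads, the log2 values were 0.17 for Gm9758, 0.37 for Phf21a and 0.0157 for Gm21962 in males, 0.17 for Speer4d in females, -0.0677 for Gm9758 and 0.00069 for Prl2c3 in the interaction, and -0.14 for Zfp989 between the sexes. Centred, they were 0.20 for Phf21a, -0.0453 for Glrx2, 0.13 for Speer4d, 0.14 for Prl2c3, 0.0434 for Zfp978 and -0.0348 for Zfp989. With whole islands, they were 0.58 for Gm9758, 0.0154 for Phf21a, -0.20 for Glrx2 and 0.0901 for Gm21962 in males, 0.49 for Mucl2 in females, -0.90 for Gm9758, 0.48 for Zfp977 and 0.62 for Prl2c3 in the interaction, and 0.33 for Zfp978 and -0.76 for Zfp989 between the sexes.

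Same-numbered water and ethanol libraries did not deviate together (correlations from -0.05 to 0.03), so the numbers do not pair them. A fit with the replicate number as a block called 3 regions in males, 2 higher and 1 lower in ethanol. Without the block 1 was higher and 2 were lower, so the male calls were not all the same. The fit with the block called 5 regions in females, 1 for the interaction and 9 for sex. Over all regions it called 766 of 28379 in males, 815 of 23269 in females, 808 of 21398 for the interaction and 1020 of 21398 for sex.

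Chosen after the data were seen, leaving out female water replicate 2 gave a median fold of 1.84 by library against 1.82. Folds at regions of low input rest on few reads, which limits their precision.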
